A study of Mus musculus with 19 samples.

Results

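Noradrenaline from sympathetic nerves makes fat cells release their stored fat, and the genes described here encode the machinery that receives and passes on this signal. The 7 genes were taken by symbol from an expression table of 24237 genes: the receptor genes Adrb1, Adrb3 and Adra2a, the G protein gene Gnas, the phosphodiesterase gene Pde3b, and the protein kinase A genes Prkaca and Prkar2b. Each symbol had 1 entry in the table. The tissue was epididymal white adipose tissue (eWAT), the visceral fat depot next to the epididymis.

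All mice were male C57BL6/J and were 9 to 10 weeks old when allocated to the diets, with 12 mice in each group. They were fed the diets for 17 weeks, except for 1 mouse of the study that died and was excluded. Palm oil gave 10% of the energy in the low-fat diet (LFD) and 60% in the high-fat diet (HFD), and magnesium oxide made up 0.21% of diet weight at the normal Mg2+ level (NormMg) and 0.03% at the low level (LowMg). RNA of randomly chosen mice was sequenced, 1 library for each mouse, which gave 19 libraries: 4 of NormMg-LFD-fed mice, in which 1 sample failed quality control, and 5 in each of the LowMg-LFD, NormMg-HFD and LowMg-HFD groups. Between 12986441 and 13027028 reads were sequenced per mouse, of which 86.12% to 90.41% were mapped. The values are FPKM, fragments scaled to transcript length and to the reads of the library. Levels can be compared approximately between genes and between mice. The scaling between libraries moved some calls, as given below.

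The tissue is that of the study's methods. Of 15 adipocyte markers, none was at 0 in all mice of any group. The same held for macrophage and endothelial markers, so this does not test the tissue label. A pair of libraries stood apart, however. Genes of the exocrine pancreas, which makes digestive enzymes, summed to 2133 FPKM in NormMg-LFD replicate 3 and to between 13.9 and 62.2 FPKM in each of the other mice. Genes of the testis and epididymis summed to 2961 FPKM in LowMg-HFD replicate 4 and to at most 658 FPKM elsewhere. The group medians of this sum were 158 FPKM in NormMg-LFD and 37.7 FPKM in LowMg-LFD mice. They were 3.69 FPKM in NormMg-HFD and 9.42 FPKM in LowMg-HFD mice, so such genes were not confined to 1 library. The study's methods describe a LowMg-HFD sample with some pancreatic tissue that was left out, but the labels do not name it and no LowMg-HFD library was high in pancreas genes. The methods describe 5 samples of each group as chosen for sequencing, and all 5 LowMg-HFD libraries are present here. The sample that the study left out of its analyses is therefore taken to be among the 19 libraries and is included in the fits. Which library it is cannot be told from the files, and the groups are those of the labels. Adrb3 was at 672 FPKM in NormMg-LFD replicate 3, above every HFD mouse, and at 139 FPKM in LowMg-HFD replicate 4, below every LFD mouse. The columns of LowMg-LFD mice carry a shorter name, without the fat level, and were assigned as the only low-Mg2+ columns besides those of the LowMg-HFD. All 19 mice are kept here, and the calls of Adrb3, Pde3b and Prkar2b are also given without this pair of libraries. Leaving out the pair does not remove the testis and epididymis RNA of the other LFD libraries.

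Adrenergic receptors fall into opposing classes in fat. The β-adrenergic receptors act through the stimulatory G protein whose α subunit is encoded by Gnas, which turns on adenylyl cyclase and raises cAMP, whereas α2-adrenergic receptors act through inhibitory G proteins and lower it. Protein kinase A consists of regulatory subunits that bind cAMP and catalytic subunits that are then set free and phosphorylate lipases and lipid droplet proteins. Phosphodiesterases break cAMP down, and PDE3B is the one through which insulin restrains lipolysis in adipocytes.

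Since a rise in cAMP also reaches the genome through the cAMP response element, whose full form is TGACGTCA and whose short form is TGACG, the 250 bases before the start sites of the genes were searched on both strands, in RefSeq promoter windows of the GRCm38.p6 build. The windows covered 5 of the 7 genes, namely Adrb1, Adra2a, Gnas, Prkaca and Prkar2b, in 10 windows. The full form was in none of them, against 1.55% of the 32851 windows searched. The short form was found for 4 of the 5 genes, against 19.8% of the 27025 genes searched and 17.8% of the windows. Gnas alone had 4 of the 10 windows, and a gene with more windows has more places for a match. Each full form also holds the short form, and a match describes letters in a window and not a bound site. The following stretches show the short form in capitals for 4 genes, at the start site of Adrb1, Adra2a and Prkaca and at an alternative start site inside Gnas, where CGTCA is the same short form read from the opposite strand.
Adrb1, chr19:56722015-56722043, plus strand: gctgcgggagccTGACGcgcggccccggg
Adra2a, chr19:54045178-54045206, plus strand: ccacgtgggggcTGACGccggctgctcgg
Gnas, chr2:174327699-174327727, plus strand: aagaggttggggCGTCAtcaggctggtta
Prkaca, chr8:83972846-83972874, plus strand: gtctgcaactcgCGTCActcatccaggag
The Adra2a short form began 69 bases before the start site and that of Adrb1 began 90 bases before it. Prkaca held 2 short forms before the same start site, at 120 bases, as printed, and at 6 bases. In Gnas, which has 4 windows, the printed short form began 38 bases before a start site within the gene, lay in a pair of overlapping windows and was counted in both, and another began 216 bases before a further internal one, while none was found before the first start site of the gene.

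Adrb3, the β3-adrenergic receptor and the main β-receptor of rodent adipocytes, had by far the highest level of the 3 receptor genes, and it differed strongly between the diets (GRCm38, chromosome 8, 27225776 to 27230845, minus strand). It was at 597, 672, 358 and 408 FPKM in the NormMg-LFD mice and at 582, 532, 469, 457 and 612 FPKM in the LowMg-LFD mice. In the NormMg-HFD mice it was at 122, 62.1, 67.9, 58.4 and 124 FPKM. In the LowMg-HFD mice it was at 231, 117, 392, 139 and 398 FPKM. Every NormMg-HFD mouse lay below every LFD mouse, while the LowMg-HFD mice spread from the level of the NormMg-HFD group to that of the lower NormMg-LFD mice. The group means were 509 ± 150 (SD, n = 4), 530 ± 68.0 (SD, n = 5), 86.9 ± 33.1 (SD, n = 5) and 255 ± 134 (SD, n = 5) FPKM in the same order, so that the NormMg-HFD mean was 17.1% and the LowMg-HFD mean 50.2% of that on the NormMg-LFD.

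**Figure D1:**
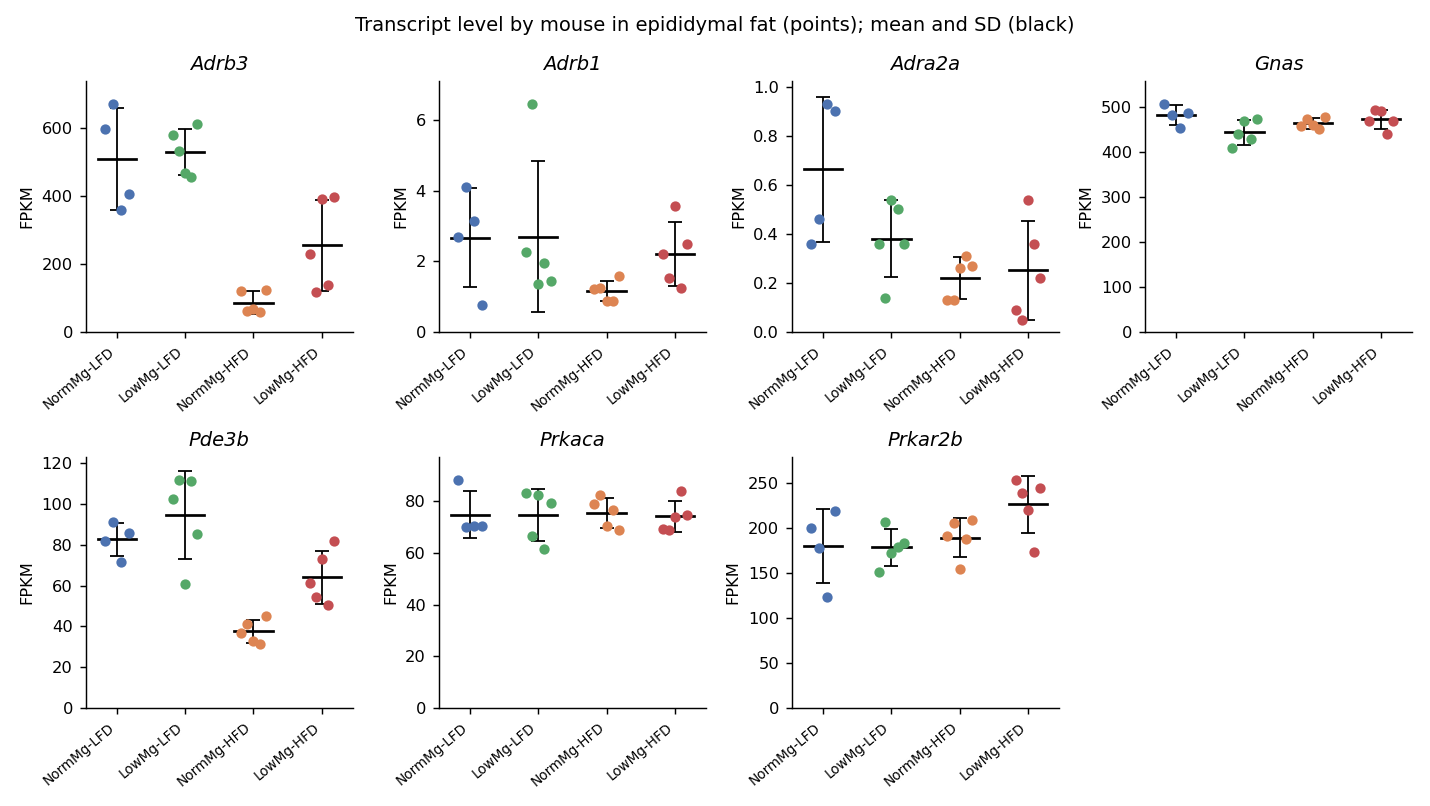
FPKM (y axis, from 0, a separate scale for each gene) of the 7 genes in each mouse (points) of the 4 diet groups (x axis), with the group mean and SD in black, n = 4 for NormMg-LFD and n = 5 for the other groups. Adrb3 and Pde3b were lowest in NormMg-HFD mice and intermediate in LowMg-HFD mice, while Gnas stayed between 409 and 508 FPKM and Prkaca between 61.5 and 88.4 FPKM in every mouse.

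Differences were tested in limma on log2(FPKM + 1) with all 4 groups in 1 fit, over the 8336 genes with a mean over 8 FPKM in a group and over 8 FPKM in at least 4 of its mice, with Benjamini-Hochberg adjustment of p over these genes. Adrb3, Gnas, Pde3b, Prkaca and Prkar2b passed this filter and Adrb1 and Adra2a did not. Fold changes are on the log2(FPKM + 1) scale.

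On normal Mg2+, the HFD lowered Adrb3 by 2.57 on the log2 scale (NormMg-HFD vs NormMg-LFD, log2 fold change -2.57, SE 0.33, 95% CI -3.26 to -1.88, adjusted p = 7.4e-06), that is, to 0.169 of its LFD level. On low Mg2+ the HFD also lowered it (log2 fold change -1.22, SE 0.31, 95% CI -1.87 to -0.57, adjusted p = 0.0122), and the groups did not overlap in either comparison. Among HFD-fed mice, low Mg2+ went with 2.73-fold higher Adrb3 (log2 fold change 1.45, SE 0.31, 95% CI 0.80 to 2.10, adjusted p = 0.00439), although LowMg-HFD replicate 2 lay below the highest NormMg-HFD mouse. Among LFD-fed mice, low Mg2+ gave a log2 fold change of 0.10 (SE 0.33, 95% CI -0.59 to 0.79, adjusted p = 0.973). From high to low the order was thus LowMg-LFD, NormMg-LFD, LowMg-HFD and NormMg-HFD, of which the LFD groups did not differ beyond their spread. In whole tissue, fewer cells of a type and less RNA per cell cannot be told apart.

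The step between the NormMg-LFD and LowMg-HFD groups was less certain. Adrb3 was lower in the LowMg-HFD mice (log2 fold change -1.12, SE 0.33, adjusted p = 0.0463), but the groups overlapped. This call was kept when NormMg-LFD replicate 4, LowMg-LFD replicate 1, NormMg-HFD replicates 1 or 5 or LowMg-HFD replicates 3 or 5 were left out one at a time, and was lost without any 1 of the other 13 mice, with an adjusted p of 0.0519 to 0.155. Without the pair of libraries high in pancreas or testis genes, the log2 fold change was -0.80 (adjusted p = 0.214). The other Adrb3 calls held without that pair: the log2 fold change was -2.42 between fat levels on normal Mg2+ (adjusted p = 4.63e-05), -1.04 on low Mg2+ (adjusted p = 0.0298) and 1.62 between Mg2+ levels on the HFD (adjusted p = 0.00586).

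These calls have to be read against how many genes changed at all. Of the 5 genes tested, 2 were called between NormMg-HFD and NormMg-LFD mice, against 37.4% of all genes tested (24.6% higher and 12.8% lower in NormMg-HFD mice), a share near that of all genes. Between LowMg-HFD and NormMg-HFD mice 2 of 5 were called, both higher, against 18.5% of all genes (5.58% higher and 12.9% lower in LowMg-HFD mice). Between LowMg-HFD and LowMg-LFD mice 2 of 5 were called, both lower, against 15.9% (12.4% higher and 3.51% lower). Between LowMg-HFD and NormMg-LFD mice Adrb3 alone was called, against 6.93% of all genes, 1.64% being lower in LowMg-HFD mice. Between the LFD groups 0 of 5 genes and 0.00% of all genes were called in limma, while 547 genes had an unadjusted p under 0.05. Scaling moved the balance of directions: the share of calls that were lower was 69.8% between the HFD groups, 34.2% between fat levels on normal Mg2+, 22% on low Mg2+ and 23.7% between LowMg-HFD and NormMg-LFD mice, and after quantile normalization it was 52.8%, 53.1%, 49.1% and 41%. Groups did not overlap in 32.1% of all genes tested between NormMg-HFD and NormMg-LFD mice, in 12.8% between the HFD groups and in 9.3% between the LowMg groups. Comparisons that share a group of mice are not independent, and their values are therefore given side by side only.

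**Figure D2:**
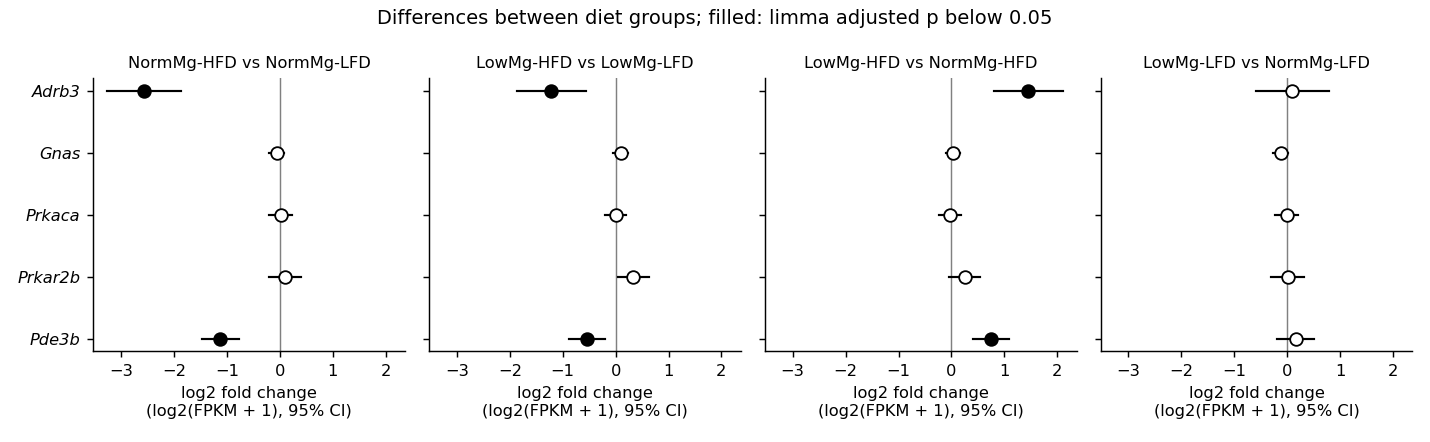
Log2 fold change on log2(FPKM + 1) (x axis) with its 95% CI (bars) for the 5 genes tested (y axis) in 4 comparisons (panels). Filled circles mark an adjusted p below 0.05 in limma, which Adrb3 and Pde3b reached in the 3 panels with an HFD group, from -2.57 to 1.45, and no gene reached between the LFD groups.

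The other receptor genes were expressed at a far lower level. Adrb1, the β1-adrenergic receptor (chromosome 19, 56722117 to 56725150, plus strand), was at 2.68, 4.12, 3.14 and 0.76 FPKM in the NormMg-LFD mice and at 2.27, 6.46, 1.37, 1.96 and 1.45 FPKM in the LowMg-LFD mice. It was at 1.23, 1.24, 0.88, 0.89 and 1.58 FPKM in the NormMg-HFD mice and at 2.2, 1.53, 3.58, 1.24 and 2.48 FPKM in the LowMg-HFD mice. Its mean was 1.16 ± 0.291 (SD, n = 5) FPKM in the NormMg-HFD group and between 2.21 and 2.70 FPKM in the other groups, with overlap between all groups. As estimated from FPKM, transcript length and the reads assigned to genes, these levels stand for 11 to 94 reads per mouse.

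Adra2a, the α2A-adrenergic receptor that restrains cAMP (chromosome 19, 54045259 to 54048982, plus strand), was the lowest of the 7 genes. It was at 0.36, 0.46, 0.93 and 0.9 FPKM in the NormMg-LFD mice and at 0.36, 0.14, 0.54, 0.5 and 0.36 FPKM in the LowMg-LFD mice. The NormMg-HFD mice had 0.13, 0.13, 0.26, 0.31 and 0.27 FPKM and the LowMg-HFD mice 0.09, 0.05, 0.54, 0.36 and 0.22 FPKM. NormMg-HFD mice were all below the NormMg-LFD mice, but 1 to 20 reads per mouse are estimated to lie behind these values. Both low genes were compared by exact two-sided permutation tests on log2(FPKM + 1), in 10 tests over 5 comparisons of groups. The smallest p that 4 against 5 mice or 5 against 5 mice allow is 0.00794, and Adra2a reached it between NormMg-HFD and NormMg-LFD mice (difference -0.43 on the log2 scale, exact p = 0.00794, adjusted p = 0.0794). Adrb1 gave an exact p of 0.0476 between the HFD groups (difference 0.53 in favour of LowMg-HFD mice, adjusted p = 0.212). None of the 10 tests passed after adjustment, for which a single test at the smallest p is not enough. When limma was run on all 24237 genes instead, Adra2a was called lower in NormMg-HFD than in NormMg-LFD mice (log2 fold change -0.43, adjusted p = 0.032), and with a filter on 1 FPKM Adrb1 was not called in any comparison (adjusted p = 0.28 between the HFD groups).

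Receptors of the α1 class, which act through calcium rather than cAMP, were also far below Adrb3 and did not pass the filter. Adra1d was at 5.94 ± 0.490 FPKM (SD, n = 5) and Adra1a at 5.50 ± 0.914 FPKM (SD, n = 5) on the NormMg-HFD. Their means on the LowMg-HFD were 5.93 and 5.63 FPKM. Lower means were seen in NormMg-LFD mice (3.92 and 2.76 FPKM) and in LowMg-LFD mice (3.82 and 3.30 FPKM), and these differences were not tested.

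Gnas, which encodes the α subunit of the stimulatory G protein, varied least of the 7 genes (chromosome 2, 174284320 to 174346744, plus strand). It was at 483 ± 21.9 (SD, n = 4) FPKM in NormMg-LFD mice, 445 ± 27.3 (SD, n = 5) in LowMg-LFD mice, 465 ± 11.8 (SD, n = 5) on the NormMg-HFD and 474 ± 21.8 (SD, n = 5) on the LowMg-HFD. The groups overlapped throughout, and the log2 fold change was -0.06 (95% CI -0.20 to 0.09, adjusted p = 0.545) between NormMg-HFD and NormMg-LFD mice and 0.03 (95% CI -0.11 to 0.16, adjusted p = 0.814) between the HFD groups. After quantile normalization the difference between fat levels on normal Mg2+ became -0.20 and passed (adjusted p = 0.0406). The level carries a further uncertainty, since the annotated gene Gm20721 lies within Gnas on the opposite strand (chromosome 2, 174330319 to 174346712) with shared exon positions and was listed at 453 to 562 FPKM. With no strand setting given in the sources used here, reads of the 2 genes cannot be told apart. Gnas also gives rise to several imprinted transcripts, which a gene value does not separate.

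Pde3b, the phosphodiesterase that ends the cAMP signal, followed the pattern of Adrb3 with a smaller range (chromosome 7, 114415222 to 114537938, plus strand). It was at 81.9, 91.2, 71.7 and 85.7 FPKM in the NormMg-LFD mice and at 102, 112, 60.9, 111 and 85.4 FPKM in the LowMg-LFD mice. The NormMg-HFD mice had 37.0, 41.2, 33.0, 31.5 and 45.2 FPKM and the LowMg-HFD mice 61.5, 54.5, 72.8, 50.3 and 81.7 FPKM. All LowMg-HFD mice lay above all NormMg-HFD mice, and all NormMg-HFD mice below all LFD mice. The means were 82.6 ± 8.20 (SD, n = 4), 94.4 ± 21.6 (SD, n = 5), 37.6 ± 5.70 (SD, n = 5) and 64.1 ± 13 (SD, n = 5) FPKM in the order NormMg-LFD, LowMg-LFD, NormMg-HFD and LowMg-HFD.

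The HFD lowered Pde3b on normal Mg2+ to 0.459 of its level (log2 fold change -1.12, SE 0.17, 95% CI -1.48 to -0.77, adjusted p = 3.96e-05). On the HFD, low Mg2+ went with 1.68-fold higher Pde3b (log2 fold change 0.75, SE 0.16, 95% CI 0.41 to 1.08, adjusted p = 0.00437). Between the LFD groups the log2 fold change was 0.16 (95% CI -0.19 to 0.52, adjusted p = 0.885), and between LowMg-HFD and NormMg-LFD mice it was -0.38 (95% CI -0.73 to -0.02, adjusted p = 0.197). LowMg-HFD mice were lower than LowMg-LFD mice (log2 fold change -0.54, SE 0.16, adjusted p = 0.0279), with overlap. That call was lost without LowMg-LFD replicates 1, 2 or 4 or LowMg-HFD replicates 1, 2 or 4, with an adjusted p of 0.0589 to 0.0791. It was also lost without the pair of libraries high in pancreas or testis genes (log2 fold change -0.46, adjusted p = 0.0687). In the other calls that pair mattered little: without it the log2 fold change was 0.83 between the HFD groups (adjusted p = 0.00715) and -1.08 between fat levels on normal Mg2+ (adjusted p = 0.000226). The order of the levels was LowMg-LFD, NormMg-LFD, LowMg-HFD and NormMg-HFD, in which the LFD groups did not differ beyond their spread and the HFD groups did, while the step between NormMg-LFD and LowMg-HFD had a CI that excluded 0 but did not pass adjustment.

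Among 16 phosphodiesterase genes that act on cAMP, Pde3b made up a median of 44.8% (37.3% to 47.5%) of the summed FPKM in NormMg-LFD mice and 52.2% (39.3% to 54.7%) in LowMg-LFD mice. Its share was 23.2% (21.7% to 24.5%) in NormMg-HFD mice and 30.7% (25.5% to 39.8%) in LowMg-HFD mice. The ranges of these last groups did not overlap.

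The protein kinase A genes changed little. Prkaca, the main catalytic subunit (chromosome 8, 83972978 to 83996444, plus strand), was at 74.9 ± 9.05 (SD, n = 4), 74.7 ± 9.93 (SD, n = 5), 75.5 ± 5.66 (SD, n = 5) and 74.2 ± 6.03 (SD, n = 5) FPKM in NormMg-LFD mice, LowMg-LFD, NormMg-HFD and LowMg-HFD mice. None of its comparisons passed, and the 95% CI of the log2 fold change was -0.20 to 0.23 between fat levels on normal Mg2+ and -0.23 to 0.18 between the HFD groups. Prkaca made up between 71.2% and 85% of the transcripts of the 2 catalytic subunit genes in any mouse, the remainder being Prkacb.

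Prkar2b encodes the RIIβ regulatory subunit, which is typical of fat and nerve cells (chromosome 12, 31958450 to 32061648, minus strand). It was at 200, 177, 123 and 219 FPKM in the NormMg-LFD mice and at 151, 207, 172, 179 and 183 FPKM in the LowMg-LFD mice. In the NormMg-HFD mice it was at 190.2, 205, 154, 188 and 208 FPKM, and in the LowMg-HFD mice at 253, 239, 220.1, 173 and 244 FPKM. The LowMg-HFD group had the highest mean, 226 ± 31.9 (SD, n = 5) FPKM, but its replicate 4 lay within the range of every other group. Against LowMg-LFD mice the log2 fold change was 0.34 (SE 0.14, 95% CI 0.04 to 0.63, adjusted p = 0.111) and against NormMg-HFD mice 0.25 (SE 0.14, 95% CI -0.04 to 0.54, adjusted p = 0.222, and 0.34 with adjusted p = 0.105 without the pair of libraries), neither of which passed. Leaving out LowMg-HFD replicate 4, the library high in testis genes, raised the difference from LowMg-LFD mice to 0.43 (adjusted p = 0.0372), and leaving out NormMg-LFD replicate 4 also let it pass (log2 fold change 0.34, adjusted p = 0.0484). Without the pair of libraries it was 0.43 (adjusted p = 0.0461). Of the 4 regulatory subunit genes, Prkar2b made up a median of 66.6%, 64.9%, 62.7% and 71% of the summed FPKM in NormMg-LFD mice, LowMg-LFD, NormMg-HFD and LowMg-HFD mice.

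Whether low Mg2+ acted differently at the 2 fat levels was asked by the interaction of Mg2+ and fat, for which 1.25% of all genes tested were called. It was not called for any of the 5 genes. For Adrb3 the difference between the Mg2+ effects was 1.35 on the log2 scale (SE 0.45, 95% CI 0.40 to 2.30, adjusted p = 0.102), and for Pde3b it was 0.58 (SE 0.23, 95% CI 0.10 to 1.07, adjusted p = 0.165). Without LowMg-HFD replicate 2, the mouse of that group with the lowest Adrb3, the Adrb3 interaction was 1.59 and passed (adjusted p = 0.0355). Without the pair of libraries high in pancreas or testis genes it was 1.38 (adjusted p = 0.145), and that of Pde3b was 0.62 (adjusted p = 0.208).

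Markers of other cell types moved with the diets. Those of macrophages, the immune cells that gather in fat of obese mice, summed to 950 to 1122 FPKM in NormMg-LFD mice and 754 to 1450 FPKM in LowMg-LFD mice. The sum was 4253 to 6963 FPKM in NormMg-HFD mice and 1223 to 3855 FPKM in LowMg-HFD mice. All 19 macrophage markers in the table were tested, of which 18 rose and 1 fell between NormMg-LFD and NormMg-HFD mice, with a median log2 fold change of 2.24 against 0.07 over all genes tested. Between NormMg-HFD and LowMg-HFD mice 18 fell, with a median of -1.41 against -0.04 over all genes. Of 10 endothelial markers tested, 3 fell with the HFD on normal Mg2+ (median -0.18). In LowMg-HFD mice 3 of the 10 were higher than in NormMg-HFD mice (median 0.22). Of 8 stromal and mesothelial markers tested, 3 rose and 1 fell with the HFD on normal Mg2+ (median 0.29). In LowMg-HFD mice 3 of the 8 were lower than in NormMg-HFD mice (median -0.49).

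Adipocyte markers moved the other way from those of macrophages. Their sum was 23494 to 32050 FPKM in NormMg-LFD mice, 26556 to 37710 in LowMg-LFD mice, 18887 to 24543 in NormMg-HFD mice and 22798 to 28542 in LowMg-HFD mice. Of the 15 adipocyte markers, 9 fell and 2 rose from NormMg-LFD to NormMg-HFD mice (median log2 fold change -0.73), and 9 were higher on the LowMg-HFD than on the NormMg-HFD (median 0.65). Adiponectin (Adipoq), the best known secreted protein of adipocytes, had log2 fold changes of -0.73 (adjusted p = 0.00332) and 0.69 (adjusted p = 0.00872) in these comparisons. Perilipin 1 (Plin1), the droplet coat protein that protein kinase A phosphorylates, had -0.74 (adjusted p = 0.000125) and 0.45 (adjusted p = 0.0116), and hormone-sensitive lipase (Lipe), another target of this kinase, -0.87 (adjusted p = 0.000141) and 0.65 (adjusted p = 0.00451). Over all 15 markers the log2 fold change ran from -3.80 for Cfd, which encodes adipsin, to 1.69 for the leptin gene Lep with the HFD on normal Mg2+, and from -0.28 for Lep to 2.12 for Cfd between the HFD groups. Beside the medians of these markers, -0.73 and 0.65, Adrb3 had -2.57 and 1.45 and Pde3b -1.12 and 0.75.

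Within the LowMg-HFD group, replicates 3 and 5 had the highest Adrb3, 392 and 398 FPKM, and macrophage sums of 1731 and 1779 FPKM. Replicate 1 had the highest macrophage sum, 3855 FPKM, with Adrb3 at 231 FPKM, and replicate 2 had a sum of 3304 FPKM with Adrb3 at 117 FPKM. Replicate 4 had the lowest macrophage sum, 1223 FPKM, with Adrb3 at 139 FPKM. Replicate 4 was the library high in testis genes and also had the lowest adipocyte sum of its group, 22798 FPKM. The part of cell type shares in the Adrb3 and Pde3b differences was not tested.

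**Figure D3:**
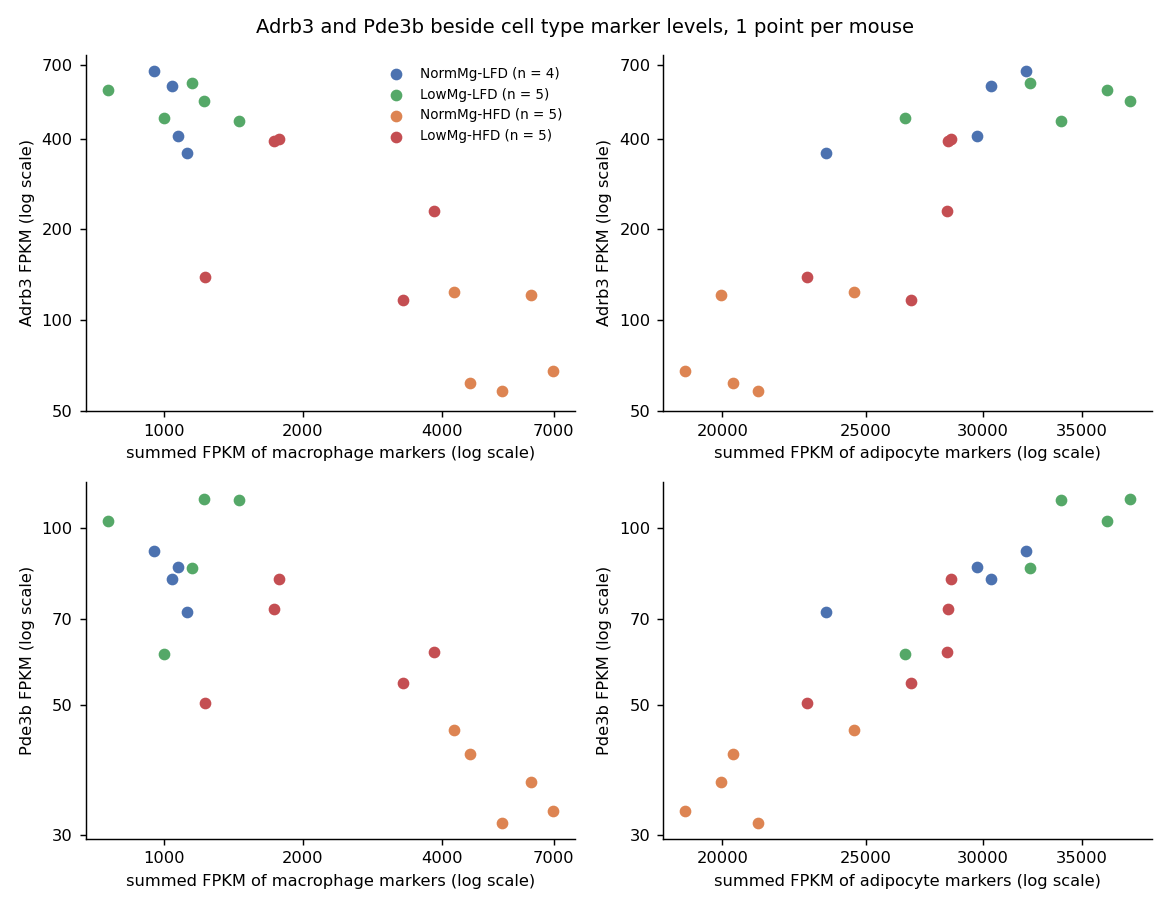
Adrb3 (top) and Pde3b (bottom) in FPKM (y axes, log scale) against the summed FPKM of macrophage markers (left) and adipocyte markers (right; x axes, log scale), 1 point per mouse, coloured by diet group. NormMg-HFD mice lie at the lowest Pde3b levels, at Adrb3 levels of at most 124 FPKM and at macrophage sums of at least 4253 FPKM, and LowMg-HFD replicate 4 is the point with low Adrb3 at a macrophage sum of 1223 FPKM.

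The rest of the pathway was read from 10 lists with 141 genes, of which 77 passed the filter and none came from the 7 genes above. Of the 77, 31 (40.3%) were called between NormMg-HFD and NormMg-LFD mice, 20 higher and 11 lower in NormMg-HFD mice, near the share of all genes. Between the HFD groups 22 (28.6%) were called, 10 higher and 12 lower in LowMg-HFD mice, against 18.5% of all genes (5.58% higher and 12.9% lower), with a median log2 fold change of 0.05 against -0.04 over all genes. None was called between the LFD groups, 15 between LowMg-HFD and LowMg-LFD mice (13 higher), 5 between LowMg-HFD and NormMg-LFD mice and none in the interaction. In all, 18 genes were called both between the HFD groups and between fat levels on normal Mg2+, comparisons that share the NormMg-HFD mice.

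**Figure D4:**
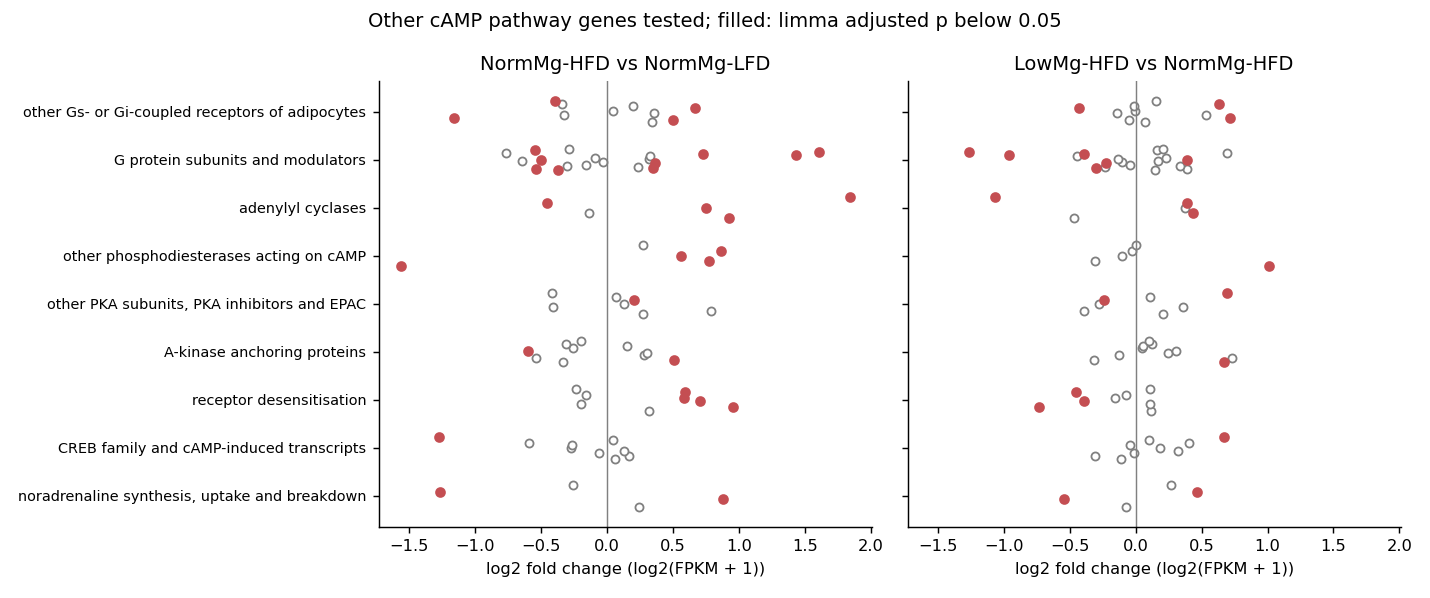
Log2 fold change on log2(FPKM + 1) (x axis) of the 77 other pathway genes tested, by list (y axis), for NormMg-HFD vs NormMg-LFD (left) and LowMg-HFD vs NormMg-HFD (right); each point is 1 gene and filled points had an adjusted p below 0.05 in limma. Filled points lie on both sides of 0 in both panels, 20 higher and 11 lower on the left and 10 higher and 12 lower on the right.

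Other receptors of adipocytes, chosen as acting on cAMP, were read from a list that also held Ptger1, a prostaglandin E receptor known to act mainly through calcium. Of 10 tested, 2 rose and 2 fell with the HFD on normal Mg2+, and between the HFD groups 2 were higher and 1 was lower in LowMg-HFD mice. Ffar4, a receptor of long-chain fatty acids, fell from 19.6 ± 2.48 (SD, n = 4) FPKM in NormMg-LFD mice to 8.55 ± 3.27 (SD, n = 5) on the NormMg-HFD (log2 fold change -1.16, adjusted p = 0.0007) and was at 14.8 ± 5.25 (SD, n = 5) on the LowMg-HFD (0.71 against NormMg-HFD mice, adjusted p = 0.0321). Sucnr1, the succinate receptor, was at 60.8 ± 8.80 (SD, n = 5) FPKM on the LowMg-HFD and 39.5 ± 10.7 (SD, n = 5) on the NormMg-HFD (log2 fold change 0.63, adjusted p = 0.0166). Ptger1 rose with the HFD (0.67, adjusted p = 0.000819) and was lower in LowMg-HFD mice (-0.43, adjusted p = 0.0285). Ffar2, a receptor of short-chain fatty acids, rose with the HFD (0.50, adjusted p = 0.0125) and Tshr, the thyrotropin receptor, fell (-0.39, adjusted p = 0.0228). Without the pair of libraries high in pancreas or testis genes, the calls of Ptger1 between the HFD groups and of Tshr were lost. The Ffar4 call between the HFD groups was kept under 20 of 28 alternatives and was lost without filter and with only the groups compared (adjusted p up to 0.101), and after median centring or quantile normalization that of Ffar2 was lost.

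G protein subunits and their modulators held 19 tested genes, of which 5 rose and 4 fell with the HFD on normal Mg2+ and 1 was higher and 5 were lower on the LowMg-HFD than on the NormMg-HFD. With quantile normalization these counts became 3 and 8, and 3 and 3. Rgs2, which shortens G protein signals, was at 11.5 ± 5.43 (SD, n = 4) FPKM in NormMg-LFD mice, 34.0 ± 3.28 (SD, n = 5) on the NormMg-HFD and 15 ± 8.21 (SD, n = 5) on the LowMg-HFD (log2 fold changes 1.61, adjusted p = 0.000367, and -1.26, adjusted p = 0.00556). Gng2 and Gng5, γ subunits, rose by 1.44 and 0.73 on the log2 scale with the HFD (adjusted p = 3.82e-05 and 8.46e-06) and were lower in LowMg-HFD mice by log2 fold changes of -0.96 and -0.39 (adjusted p = 0.00419 and 0.0057). Rgs5, a marker of pericytes in many tissues, fell with the HFD (-0.54, adjusted p = 0.00873), and Gnb5, a β subunit, fell with it (-0.50, adjusted p = 0.00531) and was higher in LowMg-HFD mice (0.39, adjusted p = 0.0341), the latter call being lost without the pair of libraries high in pancreas or testis genes.

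Among 5 adenylyl cyclases tested, the enzymes that make cAMP, 3 rose and 1 fell with the HFD on normal Mg2+, and 2 were higher and 1 lower in LowMg-HFD mice. Adcy7, an isoform of blood cells, went from 8.43 ± 3.00 (SD, n = 4) FPKM in NormMg-LFD mice to 31.9 ± 4.73 (SD, n = 5) on the NormMg-HFD (log2 fold change 1.84, adjusted p = 3.2e-05) and was at 15.7 ± 6.66 (SD, n = 5) on the LowMg-HFD (-1.07, adjusted p = 0.00767). Adcy6 moved the other way, with log2 fold changes of -0.45 (adjusted p = 0.000582) and 0.39 (adjusted p = 0.00451). Adcy3 rose by 0.92 (adjusted p = 0.000357) and Adcy5 by 0.75 (adjusted p = 0.0299) with the HFD, the latter not after median centring or quantile normalization, and Adcy4 was higher in LowMg-HFD mice (0.43, adjusted p = 0.0448), a call kept under 13 of 28 alternatives.

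The phosphodiesterases other than Pde3b held 5 tested genes, of which 3 rose and 1 fell with the HFD on normal Mg2+ and 1 was higher in LowMg-HFD mice. That gene was Pde1a, a calcium-dependent enzyme, which was at 20.3 ± 2.22 (SD, n = 4) FPKM in NormMg-LFD mice, 6.34 ± 1.54 (SD, n = 5) on the NormMg-HFD and 14.4 ± 5.69 (SD, n = 5) on the LowMg-HFD. Its log2 fold changes were -1.56 with the HFD (adjusted p = 2.32e-05) and 1.01 between the HFD groups (adjusted p = 0.00393), the same directions as those of Pde3b. Pde7a, Pde1b and Pde2a rose with the HFD by 0.86, 0.77 and 0.56 on the log2 scale (adjusted p = 0.00692, 0.000254 and 0.0485), and the last call was kept under 10 of 28 alternatives. Pde2a has more than 1 entry in the table, so its reads may be divided between them.

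Besides Prkaca and Prkar2b, 7 genes of protein kinase A, of its inhibitors and EPAC, the cAMP sensors outside the kinase, were tested. Prkar1a, the ubiquitous RIα subunit, rose slightly with the HFD (0.20, adjusted p = 0.0369) and was lower in LowMg-HFD mice (-0.24, adjusted p = 0.0234), and both calls were lost with quantile normalization and without the pair of libraries high in pancreas or testis genes, the first being kept under 18 of 28 alternatives. Rapgef3, which encodes EPAC1, was higher in LowMg-HFD mice, at 39.1 ± 9.43 (SD, n = 5) against 23.7 ± 4.76 (SD, n = 5) FPKM (log2 fold change 0.69, adjusted p = 0.0115). Of 10 A-kinase anchoring proteins, which tether the kinase within the cell, 1 rose and 1 fell with the HFD on normal Mg2+, namely Akap10 (0.51, adjusted p = 0.00168) and Akap7 (-0.60, adjusted p = 0.0228). Akap1, the anchor at mitochondria, was the 1 called between the HFD groups (0.67, adjusted p = 0.0258), and the call was lost without the pair of libraries high in pancreas or testis genes.

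The list for receptor desensitisation, which holds kinases and arrestins that switch receptors off and related genes such as the sorting nexin Snx27, which returns receptors to the cell surface, showed 4 rises among 8 tested with the HFD on normal Mg2+ and no fall, and 3 were lower on the LowMg-HFD than on the NormMg-HFD. Of all genes, 24.6% rose and 12.8% fell in the first comparison and 12.9% were lower in the second. β-arrestin 2 (Arrb2) was at 23.5 ± 3.58 (SD, n = 4) FPKM in NormMg-LFD mice, 47.0 ± 11.5 (SD, n = 5) on the NormMg-HFD and 27.4 ± 2.98 (SD, n = 5) on the LowMg-HFD (log2 fold changes 0.95, adjusted p = 0.000327, and -0.74, adjusted p = 0.00579). Grk2 had log2 fold changes of 0.71 (adjusted p = 0.000343) and -0.39 (adjusted p = 0.0378) and Snx27 of 0.59 (adjusted p = 0.00361) and -0.45 (adjusted p = 0.0291), while Grk5 rose with the HFD only among these comparisons (0.58, adjusted p = 0.0015). The Grk2 call between the HFD groups was lost after median centring, after quantile normalization and without the pair of libraries. Arrestins and these kinases are also abundant in immune cells, whose macrophage markers moved in the same directions, and the part of this in the result was not tested.

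Of 9 tested genes of the CREB family and transcripts induced by cAMP, 1 fell with the HFD on normal Mg2+ and 1 was higher on the LowMg-HFD than on the NormMg-HFD, in both cases Sik2. This salt-inducible kinase, which protein kinase A inhibits in adipocytes, was at 114 ± 16.9 (SD, n = 4) FPKM in NormMg-LFD mice, 135 ± 18.9 (SD, n = 5) in LowMg-LFD mice, 47.0 ± 8.88 (SD, n = 5) on the NormMg-HFD and 76.1 ± 19.1 (SD, n = 5) on the LowMg-HFD (log2 fold changes -1.27, adjusted p = 1.58e-05, and 0.67, adjusted p = 0.00936). The median log2 fold change of the list was -0.06 with the HFD and 0.11 between the HFD groups, against 0.07 and -0.04 over all genes.

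Of the genes that make, take up or break down noradrenaline, 4 of 10 in the table passed the filter. The monoamine oxidases moved in opposite directions. Maob fell from 32.5 ± 3.67 (SD, n = 4) FPKM in NormMg-LFD mice to 13 ± 1.72 (SD, n = 5) on the NormMg-HFD (log2 fold change -1.26, adjusted p = 1.51e-06) and was at 18.4 ± 3.59 (SD, n = 5) on the LowMg-HFD (0.46, adjusted p = 0.0138). Maoa rose from 10.1 ± 0.682 (SD, n = 4) to 19.4 ± 2.73 (SD, n = 5) FPKM (0.88, adjusted p = 1.01e-05) and was at 13 ± 1.98 (SD, n = 5) on the LowMg-HFD (-0.54, adjusted p = 0.00343).

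For each of the 5 genes tested, the 3 genes whose log2(FPKM + 1) ran most nearly in parallel over the 19 mice are named, as a description, since the mice share diet groups and libraries. Adrb3 was closest to Retn, the adipokine resistin (Pearson's r 0.966, and 0.783 after the group means were removed), Phyh, a peroxisomal enzyme (0.965 and 0.781), and Sort1, a sorting receptor (0.965 and 0.819). Pde3b was closest to Csad, an enzyme of taurine synthesis (0.973 and 0.856), Acss3, an acyl-CoA synthetase (0.966 and 0.817), and Lgals12, an adipocyte galectin (0.960 and 0.804). Prkar2b was closest to Tusc5 (0.913 and 0.907), Hsdl2 (0.860 and 0.824) and Fsd2 (0.859 and 0.861). Prkaca was closest to Slc25a10, the mitochondrial dicarboxylate carrier (0.874 and 0.885), 5730508B09Rik (0.779 and 0.780) and a gene without a symbol (0.721 and 0.770). Gnas was closest to Gm20721 (0.871 and 0.866), its overlapping neighbour, followed by Ece1 (0.788 and 0.735) and Ggh (0.777 and 0.733).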

How the data were processed

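RNA sequencing libraries of eWAT from 19 mice in 4 diet groups were analysed. According to the study's methods and the submitters' processing notes, the authors mapped 50 bp single-end reads to the mouse transcriptome (GRCm38/mm10) with HISAT and Bowtie2, obtained FPKM with RSEM 1.2.31 and deposited them as 1 table. The FPKM deposited by the authors are not counts, so count tests were not used. Read totals and the percent of reads mapped were deposited by the authors beside them. Strand settings are not given in the sources used here.

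Of 24238 genes, 1 with a cell that is not a number was left out, 12 lines of wrapped annotation were dropped and 26 symbols turned into dates were restored. The 4 groups were taken from the labels. A pseudocount of 1 was added, log2 was taken without further scaling, and genes over 8 FPKM on average in a group and in at least 4 of its mice (8336) entered 1 fit with an intensity trend in limma (version 3.58.1, under R 4.3.3). P values are two-sided, adjusted over all genes tested, with a threshold of 0.05. A fold is 2 to the power of the log2 fold change and understates changes of low genes. Genes below the filter were compared by exact permutation tests (Python 3.11.15), adjusted over 10 tests. Replicates are separate mice.

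The 7 genes and all lists were chosen with earlier results of these data known, so they give no independent support. Named are the 7 genes, pathway genes called in the fat comparison on normal Mg2+ or between the HFD groups (up to 4 per list and comparison, largest first), and the 3 genes with the highest correlation to each gene tested. Adipoq, Plin1, Lipe, Cfd and Lep, and the receptors Adra1a and Adra1d, were named after their values were seen. Of genes with more than 1 identifier (3 of those listed), the entry with the higher mean was used. Numbers of reads behind low FPKM were estimated from the steps between low values, of which 64% to 71.8% per library lay within 0.1 of whole reads, and 5780000 to 6060000 reads were taken as assigned. Depth was even, and the spread between mice sets the precision.

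Alternatives were a pseudocount of 0.1, a filter on 1 FPKM or none, median centring, quantile normalization, no intensity trend, only the groups compared, replicate number as a block, and leaving out each mouse. Leaving out NormMg-LFD replicate 3 together with LowMg-HFD replicate 4 was added after the data were seen. Simulated data in which 200 genes were changed were used to test the fit. Promoter windows are from RefSeq (GRCm38.p6), gene overlaps from GENCODE vM21. Figures were drawn with matplotlib 3.10.9. Values of some receptor genes are not reported here, and other experiments of the study were not analysed here.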

Additional observations from a re-analysis of the deposited data

Results flagged for a closer look

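In 44 groups of 4 or 5 mice, the highest or lowest mouse was compared with the others by the share of the group's range that separated it from its nearest neighbour, against Dixon's 95% limit, which chance passes in about 1 in 20 groups. Of these groups, 28 were of the 7 genes, and 2 of them held a mouse beyond the limit. Adrb1 reached 6.46 FPKM in LowMg-LFD replicate 2, with the other mice of its group at 1.37 to 2.27 FPKM. Prkaca reached 88.43 FPKM in NormMg-LFD replicate 2, with the other 3 mice at 69.92 to 70.6 FPKM. Among the marker sums, the exocrine pancreas genes of NormMg-LFD replicate 3 (2133.1 FPKM) and the testis and epididymis genes of LowMg-HFD replicate 4 (2961.1 FPKM) and NormMg-HFD replicate 3 (16.57 FPKM) stood apart from their groups.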

How the results depend on the processing

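Over 28 alternatives each, the log2 fold changes of Adrb3 (1.25 to 1.68) and Pde3b (0.654 to 0.826) between the HFD groups, and of Adrb3 (-2.72 to -2.42) and Pde3b (-1.25 to -1.06) between fat levels on normal Mg2+, kept their direction and their calls, as did that of Adrb3 between fat levels on low Mg2+ (-1.42 to -0.98). Of the 5 genes tested, 2 were called in the first pair of comparisons without any 1 mouse. The count between LowMg-HFD and LowMg-LFD mice (2) fell to 1 without a filter and with only the groups compared, and ranged from 1 to 3 without 1 mouse. The count between LowMg-HFD and NormMg-LFD mice (1) fell to 0 with a filter on 1 FPKM, without filter, after median centring, without the intensity trend, with only the groups compared and without the pair of libraries, and ranged from 0 to 1 without 1 mouse, as did that of the interaction (0). The exact tests of Adrb1 and Adra2a could hardly pass at this size, so their 0 calls say nothing about stability.

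Differences near 0 changed sign. After median centring and quantile normalization, the log2 fold change of Prkaca was 0.033 and 0.050 between the HFD groups, 0.058 and 0.016 between the LFD groups and -0.086 and -0.096 between fat levels on normal Mg2+, and -0.014 there without the pair of libraries. Prkar2b was at -0.007 and -0.096 between fat levels on normal Mg2+, and Gnas at -0.017 between fat levels on low Mg2+ after median centring. Without 1 mouse, Prkaca ranged from -0.070 to 0.007 between the HFD groups, from -0.047 to 0.075 between the LFD groups, from -0.016 to 0.098 between fat levels on normal and from -0.069 to 0.038 on low Mg2+, and from -0.054 to 0.072 between LowMg-HFD and NormMg-LFD mice. Between the LFD groups Adrb3 ranged from -0.054 to 0.248 and Prkar2b from -0.159 to 0.116, and between fat levels on normal Mg2+ Prkar2b from -0.074 to 0.201. The cause was not tested.

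The median log2 fold change of all genes between fat levels moved from 0.07 to -0.04 on normal and from 0.10 to -0.02 on low Mg2+ with quantile normalization. Over all genes, 578 calls between LowMg-HFD and NormMg-LFD mice became 103 with only the groups compared, 245 without filter, 380 with a replicate block and 199 to 804 without 1 mouse, 1329 between LowMg-HFD and LowMg-LFD mice became 725 with only the groups compared and 807 to 1470 without 1 mouse, and 1542 between the HFD groups became 945 to 1642 without 1 mouse. The 104 of the interaction became 24 with a pseudocount of 0.1, 48 and 2 with a filter on 1 FPKM and with none, 245 and 347 after median centring and quantile normalization, 67 without the intensity trend, 0 with the block, 0 without the pair of libraries and 0 to 476 without 1 mouse. Same-numbered mice correlated by -0.183 to 0.339 in their deviations from the group means, which cannot show whether the numbers pair mice. With the replicate block the members called stayed at 2, 2, 2 and 1 in the comparisons with calls. Of 53 calls of other pathway genes, 128 of 1484 recomputed values no longer passed and none changed sign. Low FPKM limits Adrb1 and Adra2a.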
